A study of Arabidopsis thaliana with 18 samples.

Results

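*DMR6* and *BSMT1* encode enzymes that take salicylic acid (SA), the central hormone of systemic acquired resistance (SAR), out of its free form in *Arabidopsis*. They are 2 of the 14299 genes to which a probe set of the ATH1 array could be assigned here, and were found by locus, *DMR6* as AT5G24530 on chromosome 5 and *BSMT1* as AT3G11480 on chromosome 3. Each is measured by 1 probe set. Total RNA came from untreated systemic leaves of soil-grown Col-0 plants, the *lecrk-VI.2-2* mutant and the *bak1-5* mutant, taken 48 hr after lower leaves of the same plants had been infiltrated. The infiltrate was 10 mM MgCl2 (−SAR) or *Pseudomonas syringae* pv. *maculicola* ES4326 (*Psm*), a virulent bacterial leaf pathogen, at an OD600 of 0.002 in 10 mM MgCl2 (+SAR). This gave 6 groups of 3 arrays, called replicates 1 to 3 within a group. The *lecrk-VI.2-2* line carries a T-DNA in *LecRK-VI.2* and was described by the study as a knockdown mutant. The product of *LecRK-VI.2* is a lectin receptor kinase that the study tested as a receptor of extracellular NAD(P)+. The *bak1-5* line carries a mutant allele of the receptor-associated kinase BAK1. Each mutant was represented by a single line, and each RNA sample was drawn from mixed leaves of several plants.

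SA is made mainly through isochorismate, and free SA is removed by several kinds of enzyme. DMR6 (DOWNY MILDEW RESISTANT6) and its relative DLO1 are oxygenases that hydroxylate SA, and loss of DMR6 is known to raise SA levels and resistance. BSMT1 belongs to the SABATH methyltransferases and turns SA into the volatile ester methyl salicylate. *BSMT1* is known as a target of coronatine, a jasmonate mimic made by *Pseudomonas syringae*, which acts through the transcription factor MYC2 and NAC factors, whereas *DMR6* is known as a gene induced by pathogens and SA. The values below ask how both genes responded to SAR activation in distant leaves, and how that response differed in plants with an altered LecRK-VI.2 or BAK1.

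All values are log2 signals from a robust multichip average (RMA), so a difference of 1 is a doubling, and a level can be compared between groups but not between probe sets. Across the 18 arrays the median signal lay between 4.452 and 4.595. The share of probe sets at or above 6 was 18.2% to 19.6% except in *lecrk-VI.2-2* MgCl2 replicate 2 (16.0%) and *lecrk-VI.2-2* *Psm* replicate 3 (16.8%), and *bak1-5* *Psm* replicate 3 had the lowest median. The probe set of *LecRK-VI.2* did not separate the arrays labelled *lecrk-VI.2-2* after MgCl2 (5.52 to 5.59) from those labelled wild type (5.44 to 5.55), but was lower in them after *Psm* (5.45 to 5.68 against 5.78 to 5.91). By quantitative PCR the study reported less basal *LecRK-VI.2* transcript in this line than in the wild type, which the MgCl2 arrays did not show. Where the probes of the array lie relative to the insertion is not given in the sources used here, so this probe set does not check the label. Of 16 cell type markers listed, 1 could be assigned to a probe set, *FAMA* of the guard cell lineage, so the labelled tissue could not be checked with the listed markers. The RNA is from whole leaves, in which fewer cells of a type and less RNA per cell cannot be told apart.

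*DMR6* was raised with SAR in all 3 genotypes, most in the wild type and least in *lecrk-VI.2-2*. In the wild type its signal was 6.32, 6.36 and 6.33 after MgCl2 and 10.12, 10.02 and 10.13 after *Psm*. In *lecrk-VI.2-2* it was 6.78, 6.34 and 6.82 after MgCl2 and 8.72, 8.98 and 8.77 after *Psm*. In *bak1-5* it was 6.09, 6.36 and 6.09 after MgCl2 and 9.18, 9.13 and 9.19 after *Psm*. Within each genotype every *Psm* array lay above every MgCl2 array, by a gap of 3.66 (wild type), 2.77 (*bak1-5*) or 1.90 (*lecrk-VI.2-2*). The *Psm* arrays of the 3 genotypes did not overlap either. The share of all probe sets that show no overlap was not counted, here or for *BSMT1* below. With SAR in the wild type, 22.9% of all probe sets had an unadjusted *p* below 0.05 in limma.

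**Figure D1:**
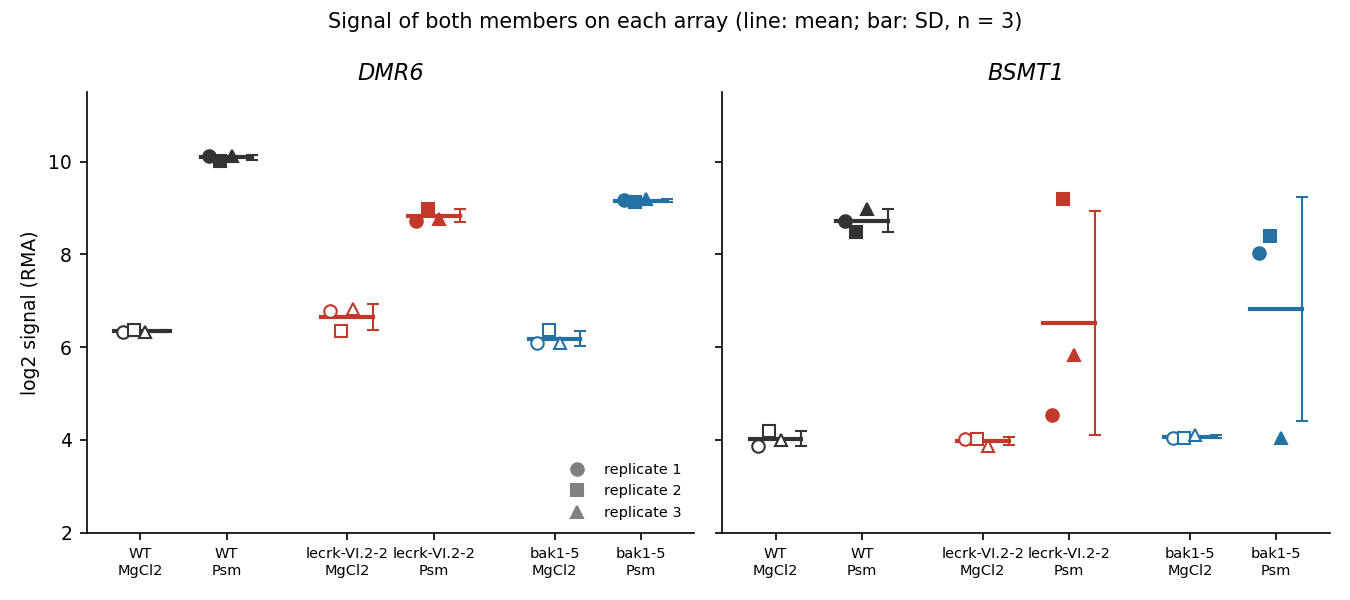
Log2 RMA signal of *DMR6* (left) and *BSMT1* (right) on each of the 18 arrays, by genotype and infiltrate. Open symbols are MgCl2 arrays, filled symbols are *Psm* arrays, circles, squares and triangles are replicates 1, 2 and 3, and the line and bar give the mean and SD of 3 arrays. *DMR6* sits in tight clusters, with *Psm* means of 10.09, 8.83 and 9.16, whereas *BSMT1* on the *Psm* arrays of the mutants spans 4.53 to 9.20 and 4.04 to 8.39.

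The rise of *DMR6* in the wild type was 3.75 (SE 0.11; 95% interval 3.51 to 3.99), a 13.5-fold increase (limma, *q* = 2.1e-13 after Benjamini-Hochberg adjustment over 22746 probe sets). It was 2.18 (SE 0.11; 1.94 to 2.41), or 4.53-fold, in *lecrk-VI.2-2* (limma, *q* = 3.6e-09) and 2.99 (SE 0.11; 2.75 to 3.22), or 7.92-fold, in *bak1-5* (limma, *q* = 1.5e-11). Of all probe sets tested, 7.36% were called raised in wild-type plants, 4.08% in *bak1-5* plants and 0.607% in *lecrk-VI.2-2* plants, a call being a *q* of at most 0.05. *DMR6* had the smallest *p* of all 22746 probe sets in each of the 3 genotypes, while its change ranked 27th, 14th and 24th.

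The loss in the mutants was tested as a difference of the changes, in contrasts that share the wild-type arrays. The rise of *DMR6* was 1.57 (SE 0.16; 1.24 to 1.91) larger in the wild type than in *lecrk-VI.2-2* (limma, *q* = 2.6e-05), where 1.11% of probe sets were called larger in the wild type. It was 0.77 (SE 0.16; 0.43 to 1.10) larger in the wild type than in *bak1-5* (limma, *q* = 0.018), where 1.07% were called so. The latter call was lost without wild-type MgCl2 replicate 1 (0.76, *q* = 0.052), without wild-type *Psm* replicate 3 (0.74, *q* = 0.056) and without *bak1-5* MgCl2 replicate 2 (0.68, *q* = 0.067). *DMR6* thereby kept 58.1% of its wild-type log2 change in *lecrk-VI.2-2* and 79.6% in *bak1-5*. The 564 probe sets raised at least 2-fold in the wild type kept a median of 32.3% and 49.6%, and 49 and 97 of them kept a larger share than *DMR6*. These shares rest on the same wild-type arrays that chose the 564 probe sets and were not tested.

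Between the mutants, the rise of *DMR6* was 0.81 (SE 0.16; 0.47 to 1.14) larger in *bak1-5* than in *lecrk-VI.2-2*, which did not pass (limma, *q* = 0.068), in a comparison that called 0.0308% of probe sets in either direction. It passed without *lecrk-VI.2-2* MgCl2 replicate 2, the array with the lowest share of probe sets at or above 6 (0.96, *q* = 0.0015). On that array *DMR6* read 6.34, against 6.78 and 6.82 on the other MgCl2 arrays of the genotype. It also passed when *lecrk-VI.2-2* *Psm* replicate 3 was left out together with that array (0.93, *q* = 0.0047).

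By level, the order of *DMR6* was wild type after *Psm* (10.09 ± 0.06, SD, n = 3), *bak1-5* after *Psm* (9.16 ± 0.03), *lecrk-VI.2-2* after *Psm* (8.83 ± 0.14), and then the MgCl2 groups of *lecrk-VI.2-2* (6.65 ± 0.27), the wild type (6.34 ± 0.02) and *bak1-5* (6.18 ± 0.16). After *Psm* its level was 0.92 lower in *bak1-5* than in the wild type (limma difference −0.92, *q* = 7.2e-05) and 1.26 lower in *lecrk-VI.2-2* (limma difference −1.26, *q* = 1.2e-06), with 2.28% and 4.73% of probe sets called lower in these comparisons. The *bak1-5* and *lecrk-VI.2-2* levels after *Psm* are neighbours whose difference of 0.34 did not pass (95% interval 0.10 to 0.58; limma, *q* = 0.25; 0.198% of probe sets called). After MgCl2 the difference of *lecrk-VI.2-2* from the wild type was 0.31 for *DMR6* (interval 0.07 to 0.54; limma, *q* = 1), a comparison with 0 calls (0%) at a *q* of 0.05 and 987 probe sets at an unadjusted *p* below 0.05. The difference of *bak1-5* from the wild type after MgCl2 was −0.16 (interval −0.39 to 0.08; limma, *q* = 1; 0.0572% called). The difference of *bak1-5* from *lecrk-VI.2-2* after MgCl2 was −0.47 (−0.70 to −0.23; limma, *q* = 0.26; 0.0703% called), and it passed without *lecrk-VI.2-2* MgCl2 replicate 2 (−0.62, *q* = 0.0073).

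*BSMT1* was raised on every *Psm* array of the wild type and unevenly in both mutants. In the wild type it was 3.88, 4.20 and 4.01 after MgCl2 and 8.72, 8.48 and 8.98 after *Psm*, with no overlap and a gap of 4.29. In *lecrk-VI.2-2* it was 4.03, 4.02 and 3.88 after MgCl2 and 4.53, 9.20 and 5.83 after *Psm*. In *bak1-5* it was 4.05, 4.05 and 4.10 after MgCl2 and 8.02, 8.39 and 4.04 after *Psm*. Thus *lecrk-VI.2-2* *Psm* replicate 2 held the highest *BSMT1* signal of all 18 arrays, above every wild-type array, and *bak1-5* *Psm* replicate 3 was within the range of the MgCl2 arrays. The other *Psm* arrays of *bak1-5* came close to the wild type, and the other *Psm* arrays of *lecrk-VI.2-2* stayed below it.

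The rise of *BSMT1* in the wild type was 4.70 (SE 0.93; 95% interval 2.74 to 6.66), a 26.0-fold increase (limma, *q* = 0.0015) and the sixth largest of all probe sets. Its MgCl2 signals lay below the median of all probe set means (4.56) and detection above background was not tested. If they are background, the fold is a lower bound. The SE is that of the fit over all 6 groups and so carries the spread of the mutant arrays. With the 6 wild-type arrays alone it was 0.13 (*q* = 5.5e-08). In *lecrk-VI.2-2* the change was 2.54 (0.59 to 4.50; limma, *q* = 0.30) and in *bak1-5* 2.75 (0.79 to 4.71; limma, *q* = 0.088), neither of which passed. Without *bak1-5* *Psm* replicate 3 the change in *bak1-5* was 4.14 (*q* = 0.0028), and with *lecrk-VI.2-2* *Psm* replicate 2 left out it passed as well (2.75, *q* = 0.022). That omission brought the change in *lecrk-VI.2-2* to 1.20 (*q* = 0.87). When arrays were weighted by their quality over all probe sets, the change passed in *lecrk-VI.2-2* (3.83, *q* = 0.0036) and in *bak1-5* (3.78, *q* = 2.7e-04). *bak1-5* *Psm* replicate 3 then had a weight of 0.297, against 2.01 for *lecrk-VI.2-2* *Psm* replicate 2.

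**Figure D2:**
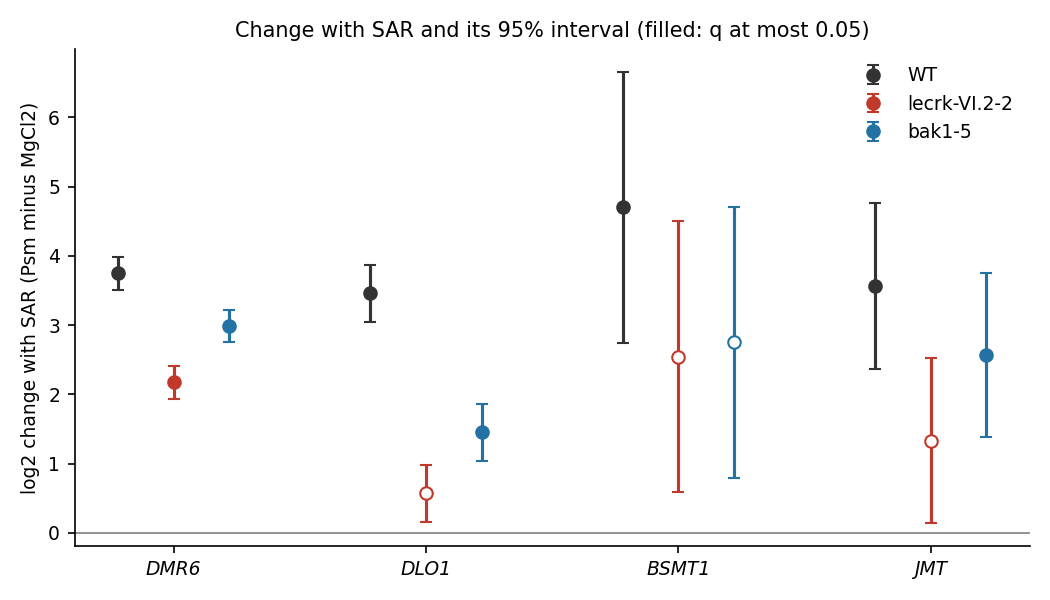
Log2 change with SAR (*Psm* minus MgCl2) of *DMR6*, *DLO1*, *BSMT1* and *JMT* in the 3 genotypes, with 95% intervals from the limma fit of all 18 arrays. Filled points passed a *q* of 0.05. The 3 intervals of *DMR6* do not overlap (3.51 to 3.99, 1.94 to 2.41 and 2.75 to 3.22), whereas those of *BSMT1* overlap widely.

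No difference between genotypes passed for *BSMT1*, and the intervals are wide. Its rise was 2.16 larger in the wild type than in *lecrk-VI.2-2* (−0.61 to 4.92; limma, *q* = 0.68) and 1.95 larger than in *bak1-5* (−0.82 to 4.72; limma, *q* = 0.80), while the difference of *bak1-5* from *lecrk-VI.2-2* was 0.21 (−2.56 to 2.98; limma, *q* = 0.99). The first difference was 3.49 without *lecrk-VI.2-2* *Psm* replicate 2 (*q* = 0.10), and the second was 0.56 without *bak1-5* *Psm* replicate 3 (*q* = 1). By level, the order of *BSMT1* was wild type after *Psm* (8.73 ± 0.25, SD, n = 3), *bak1-5* after *Psm* (6.82 ± 2.41) and *lecrk-VI.2-2* after *Psm* (6.52 ± 2.41). The MgCl2 groups followed, with *bak1-5* at 4.07 ± 0.03, the wild type at 4.03 ± 0.16 and *lecrk-VI.2-2* at 3.98 ± 0.08. No pair of genotypes within an infiltrate passed a test. After *Psm* the difference of *lecrk-VI.2-2* from the wild type was −2.21 (−4.17 to −0.25; limma, *q* = 0.20), which passed without *lecrk-VI.2-2* *Psm* replicate 2 (−3.55, *q* = 0.0081). That of *bak1-5* from the wild type was −1.91 (−3.87 to 0.04; limma, *q* = 0.38), and −0.53 without *bak1-5* *Psm* replicate 3 (*q* = 0.94).

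The spread of *BSMT1* was the widest on the chip in both mutants. Its SD ranked 1st of 22746 probe sets among the *lecrk-VI.2-2* *Psm* arrays and also among those of *bak1-5*, in groups where the median SD was 0.13 and 0.12. Among the wild-type *Psm* arrays it ranked 1019th. The SD of *DMR6* ranked 10080th in *lecrk-VI.2-2* and 21699th in *bak1-5* on the same *Psm* arrays, so the arrays that split *BSMT1* did not split *DMR6*. The 10 probe sets with the widest spread among the *lecrk-VI.2-2* *Psm* arrays, listed after the values were seen, also held *TAT3*, a jasmonate-induced aminotransferase gene (6.29, 10.05 and 6.21), *NATA1*, an acetyltransferase gene (5.76, 8.97 and 5.71), and *JAZ10*, a jasmonate repressor gene (4.66, 7.52 and 4.74). *TAT3* (9.44, 10.77 and 7.59), *NATA1* (7.98, 8.08 and 5.79) and *JAZ10* (6.27, 6.83 and 4.38) were in the same list for *bak1-5*. In these genes, as in *BSMT1*, *lecrk-VI.2-2* *Psm* replicate 2 was the high array and *bak1-5* *Psm* replicate 3 the low array of its group.

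The same arrays can be read as a change from the MgCl2 mean of the genotype. On the wild-type *Psm* arrays *BSMT1* rose by 4.69, 4.45 and 4.95. On the *lecrk-VI.2-2* *Psm* arrays its change was 0.56, 5.22 and 1.85, and the mean change of 12 jasmonate (JA) markers was 1.13, 3.27 and 0.96. On the *bak1-5* *Psm* arrays *BSMT1* changed by 3.95, 4.33 and −0.02, and the JA markers by 2.88, 3.44 and 1.61. In the mutants the JA markers thus followed *BSMT1* in which array was high or low, apart from *lecrk-VI.2-2* *Psm* replicate 3. There *BSMT1* was intermediate and the markers were at the level of replicate 1. In the wild type replicate 2 was lowest for both, but *BSMT1* was highest on replicate 3 and the markers on replicate 1. On *bak1-5* *Psm* replicate 3 the markers split, from −0.36 for *JAZ10* to 3.21 for *VSP1*, a storage protein gene. *DMR6* on the same 6 mutant arrays changed by 2.08, 2.33 and 2.12 in *lecrk-VI.2-2* and by 3.00, 2.95 and 3.01 in *bak1-5*. The mean of the pathogenesis-related genes *PR1*, *PR2* and *PR5*, markers of SA signaling, changed on these arrays by 0.96, 1.22 and 1.05 and by 2.03, 3.00 and 1.96. Of these *PR1* (0.17, 0.46 and 0.25, and 1.49, 2.08 and 1.37) and *PR2* (1.25, 2.31 and 1.30, and 2.46, 4.32 and 2.13) had the same high array in *lecrk-VI.2-2* and low array in *bak1-5* as *BSMT1*, whereas *PR5* did not (1.44, 0.90 and 1.60, and 2.13, 2.59 and 2.38). The part of array quality in this split was not tested. The share of probe sets at or above 6 was 19.0% on *lecrk-VI.2-2* *Psm* replicate 2 and 18.2% on *bak1-5* *Psm* replicate 3.

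**Figure D3:**
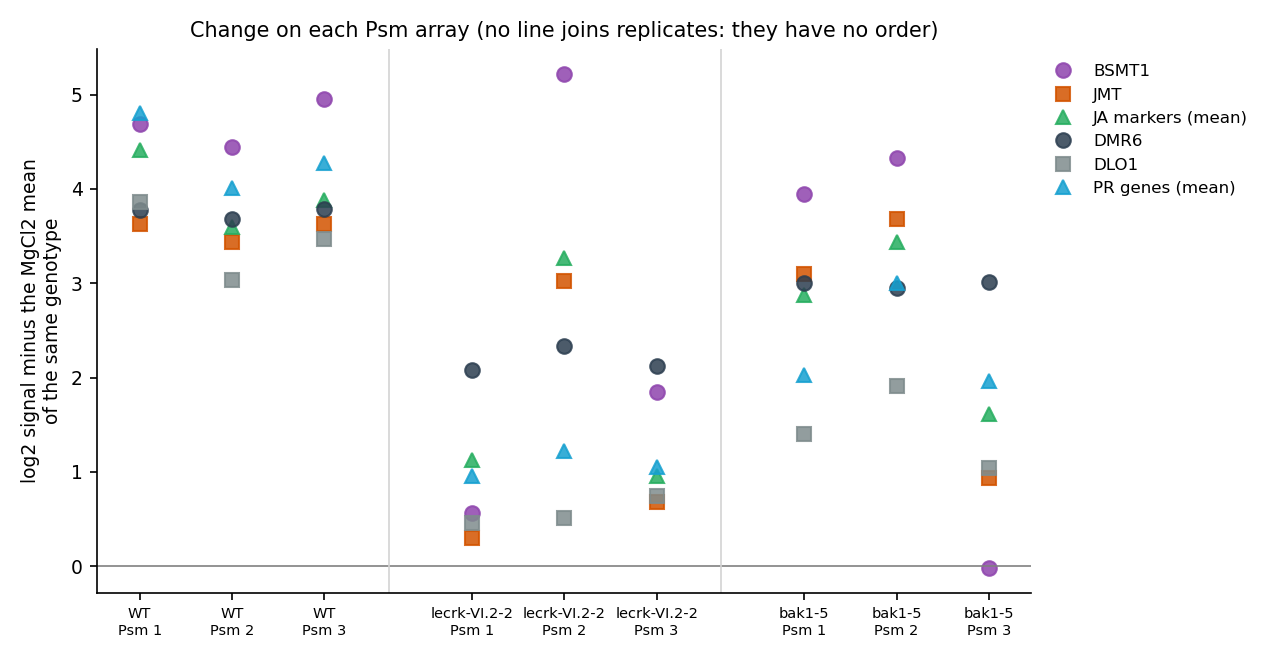
Log2 signal on each of the 9 *Psm* arrays minus the MgCl2 mean of the same genotype, for *BSMT1*, *JMT*, the mean of 12 JA markers, *DMR6*, *DLO1* and the mean of *PR1*, *PR2* and *PR5*. *BSMT1* ranges from 0.56 to 5.22 in *lecrk-VI.2-2* and from −0.02 to 4.33 in *bak1-5*, while *DMR6* stays between 2.08 and 2.33 and between 2.95 and 3.01.

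Around *DMR6*, 6 of 23 assigned genes of other SA-converting or related enzymes were raised in the wild type, 2 in *bak1-5* and 0 in *lecrk-VI.2-2*. Of all probe sets, 7.36%, 4.08% and 0.607% were called raised in that order. In *lecrk-VI.2-2* 3 of the 23 had an unadjusted *p* below 0.05 in limma, against 9.22% of all probe sets. *JMT*, for a methyltransferase of jasmonic acid, was among those raised in the wild type and in *bak1-5*. The median change of the 23 genes was 0.03 in the wild type, −0.05 in *bak1-5* and 0.05 in *lecrk-VI.2-2*. Of the 23, 5 were named through the study's list of transcriptome changes, which favors genes changed in the wild type. For 1 of the 23, *DLO1*, the rise was called larger in the wild type than in either mutant. Over all probe sets 1.11% were called larger in the wild type than in *lecrk-VI.2-2* and 1.07% than in *bak1-5*. Of 3 SA hydroxylase genes listed, *DMR6* and *DLO1* could be assigned. *DLO1* rose by 3.46 in the wild type (SE 0.19; limma, *q* = 1.1e-09), by 1.45 in *bak1-5* (limma, *q* = 8.5e-05), and had a change of 0.57 in *lecrk-VI.2-2* (0.16 to 0.98; limma, *q* = 0.25). Its rise was 2.89 larger in the wild type than in *lecrk-VI.2-2* (SE 0.27; limma, *q* = 1.8e-05) and 2.01 larger than in *bak1-5* (limma, *q* = 7.3e-04). It kept 16.5% and 41.9% of its wild-type change, against 58.1% and 79.6% for *DMR6*, a difference between genes that was not tested. On the MgCl2 arrays *DLO1* was at 3.38 to 3.97, where detection was not tested either.

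Among 6 genes of SA conjugation, 3 were raised in the wild type and 0 in either mutant at a *q* of 0.05 in limma. The shares of all probe sets were 7.36% (wild type), 4.08% (*bak1-5*) and 0.607% (*lecrk-VI.2-2*). At an unadjusted *p* below 0.05 there were 0 in *lecrk-VI.2-2* and 3 in *bak1-5*, beside 9.22% and 20.2% of all probe sets. The raised genes were *UGT76B1*, a glucosyltransferase gene for SA and related immune signals (1.78, *q* = 4.2e-04), the sulfotransferase gene *SOT12* (0.82, *q* = 3.2e-04) and the SA glucosyltransferase gene *UGT74F2* (0.77, *q* = 5.6e-04). Their changes in the mutants lay between 0.10 and 0.41. *UGT76B1* varied widely among the wild-type *Psm* arrays (6.36, 4.25 and 5.35). *GH3.5*, an amido synthetase gene, changed by 0.15 in the wild type without a call. The median change over the 6 genes was 0.46 (wild type), 0.06 (*bak1-5*) and 0.11 (*lecrk-VI.2-2*), beside −0.04, −0.04 and 0.00 over all probe sets. Of 18 methyl esterase genes, whose products can hydrolyse methyl salicylate in some cases, 2 were assigned. *MES5* rose in the wild type (0.88, *q* = 6.5e-04) with changes of 0.30 in *lecrk-VI.2-2* and 0.05 in *bak1-5*, and *MES7* changed by 0.36, 0.36 and 0.37 without a call.

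Among the 15 assigned SABATH methyltransferase genes of 23 listed, *BSMT1* and *JMT* were the members raised in the wild type, and the other 13 changed by −0.19 (AT3G21950) to 0.03. Over all probe sets 7.36% were called raised in the wild type. *JMT* encodes the enzyme that methylates jasmonic acid. *JMT* rose by 3.56 in the wild type (SE 0.57; limma, *q* = 2.1e-04) and by 2.57 in *bak1-5* (limma, *q* = 0.0081; 2.02 with *q* = 0.058 without *bak1-5* *Psm* replicate 2). Its change in *lecrk-VI.2-2* was 1.33 (0.14 to 2.52; limma, *q* = 0.45). On the *Psm* arrays its change from the MgCl2 mean was 0.30, 3.02 and 0.68 in *lecrk-VI.2-2* and 3.10, 3.68 and 0.94 in *bak1-5*. The high and low arrays were those of *BSMT1*. The rise of *JMT* was 2.23 larger in the wild type than in *lecrk-VI.2-2* (0.55 to 3.92; limma, *q* = 0.25), which passed without *lecrk-VI.2-2* *Psm* replicate 2 (3.08, *q* = 0.0098).

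Of 10 genes of SA synthesis, 4 were assigned, 3 of them through the study's list, and 3 of the 4 were raised in the wild type. *PBS3*, which conjugates isochorismate to glutamate, rose by 2.72 (limma, *q* = 7.7e-09), the isochorismate synthase gene *ICS1* by 1.01 (limma, *q* = 3.3e-04) and the transporter gene *EDS5* by 0.55 (limma, *q* = 0.010; *q* = 0.055 without wild-type MgCl2 replicate 1 and 0.087 without wild-type *Psm* replicate 1), while *AIM1* changed by −0.08. In the mutants the 4 genes changed by 0.01 to 0.30, with 0 calls and 0 at an unadjusted *p* below 0.05 in limma. The rise of *PBS3* was 2.61 larger in the wild type than in *lecrk-VI.2-2* (limma, *q* = 1.8e-05) and 2.42 larger than in *bak1-5* (limma, *q* = 5.9e-05). The differences did not pass for *ICS1* (0.90, *q* = 0.075, and 0.91, *q* = 0.073) or *EDS5* (0.46, *q* = 0.39, and 0.53, *q* = 0.29). *DMR6* was called raised in both mutants and 0 of the 4 synthesis genes were. Over all probe sets the share called raised was 7.36% in the wild type, 4.08% in *bak1-5* and 0.607% in *lecrk-VI.2-2*. With so few calls in the mutants, 0 of 4 does not set these genes apart. On the mutant arrays *PBS3* was at 3.67 to 4.45 and *ICS1* at 3.92 to 4.85, around or below the median of all probe set means (4.56). Their detection above background was not tested, while *DMR6* was at 6.09 or more on these arrays.

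All 7 regulator and receptor genes were raised in the wild type. In *bak1-5* 3 were raised, namely *EDS1* (0.92), the SA receptor gene *NPR1* (0.55) and its relative *NPR4* (0.59, beside a wild-type rise of 0.44). In *lecrk-VI.2-2* 0 passed in limma with 5 at an unadjusted *p* below 0.05, beside 9.22% of all probe sets at such a *p*. Called raised over all probe sets were 7.36% (wild type), 4.08% (*bak1-5*) and 0.607% (*lecrk-VI.2-2*). The median change of the 7 genes was 1.10 in the wild type, 0.26 in *bak1-5* plants and 0.32 in *lecrk-VI.2-2* plants. The largest wild-type rises were those of *PAD4*, a lipase-like immune regulator gene (1.79), the SA receptor gene *NPR3* (1.38), the transcription factor gene *CBP60G* (1.18) and *EDS1*, the partner of *PAD4* (1.10). For 4 of the 7 the rise was larger in the wild type than in *lecrk-VI.2-2* at a *q* of 0.05. These were *PAD4* (1.28, *q* = 9.7e-04), *NPR3* (1.09, *q* = 0.015; 1.03 with *q* = 0.052 without *lecrk-VI.2-2* *Psm* replicate 1), *CBP60G* (0.91, *q* = 0.012) and *EDS1* (0.75, *q* = 0.011). For *PAD4* (1.53, *q* = 2.5e-04), *NPR3* (1.29, *q* = 0.0035) and *CBP60G* (1.08, *q* = 0.0028) it was also larger in the wild type than in *bak1-5*. Of all probe sets 1.11% were called larger in the wild type than in *lecrk-VI.2-2* and 1.07% than in *bak1-5*. All 7 genes were named through the study's list of transcriptome changes. Of the 1017 probe sets named only in that way 82.0% passed in the wild type, against 10.0% of those named by the platform annotation, so a count of raised members among them is not independent of the naming.

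**Figure D4:**
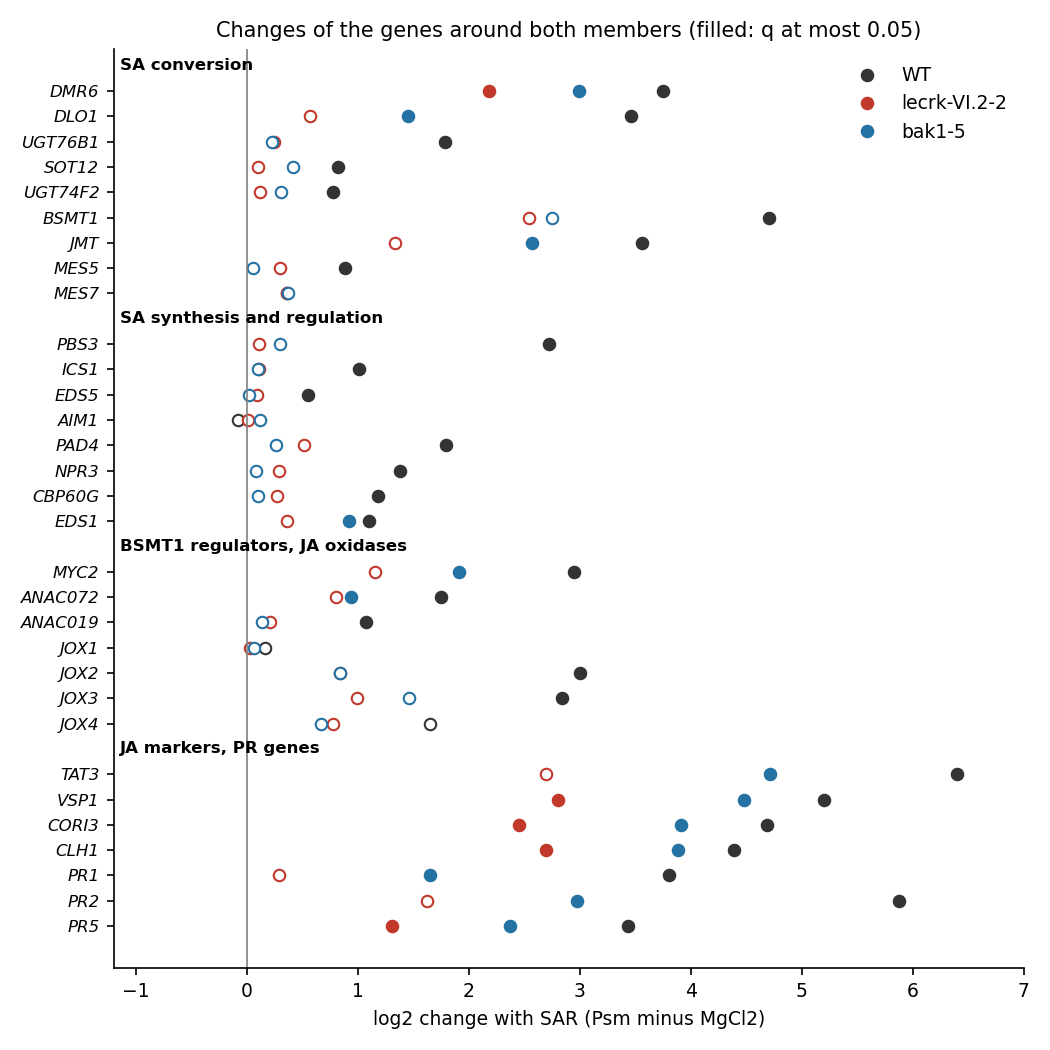
Log2 change with SAR (*Psm* minus MgCl2) in each genotype for genes of SA conversion, SA synthesis and regulation, regulators named for *BSMT1*, JA oxidases, JA markers and *PR* genes. Filled points passed a *q* of 0.05 in limma. *DMR6* (3.75, 2.18 and 2.99) is filled in all 3 genotypes, whereas *PBS3* (2.72, 0.11 and 0.30) is filled in wild-type plants alone.

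Around *BSMT1*, 3 of 5 regulator genes were assigned, all through the study's list. *MYC2* rose by 2.95 in the wild type (limma, *q* = 2.5e-06) and by 1.91 in *bak1-5* (limma, *q* = 5.4e-04), with a change of 1.15 in *lecrk-VI.2-2* (0.51 to 1.79; limma, *q* = 0.091; 1.39 with *q* = 0.048 without *lecrk-VI.2-2* *Psm* replicate 3). The NAC factor gene *ANAC072* rose by 1.75 in the wild type (limma, *q* = 1.2e-04) and changed by 0.80 in *lecrk-VI.2-2* and by 0.94 in *bak1-5*. The latter value passed (limma, *q* = 0.036) but not without *bak1-5* MgCl2 replicate 1, 2 or 3 or *Psm* replicate 1 or 2, each left out in turn (*q* = 0.079 to 0.14). The NAC factor gene *ANAC019* rose by 1.07 in the wild type (limma, *q* = 7.0e-04) and changed by 0.21 and 0.13 in *lecrk-VI.2-2* and *bak1-5*. Among the 3 regulator genes, 1 rise was called larger in the wild type than in *lecrk-VI.2-2* and 0 larger than in *bak1-5*, beside 1.11% and 1.07% of all probe sets. On the *Psm* arrays *ANAC072* was split as *BSMT1* was, with changes of 0.30, 1.66 and 0.45 in *lecrk-VI.2-2* and of 1.23, 1.24 and 0.36 in *bak1-5*.

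JA oxidases are relatives of DMR6 that hydroxylate jasmonic acid. Of the 4 genes *JOX2* (3.00, *q* = 5.6e-04) and *JOX3* (2.84, *q* = 0.0039) were raised in the wild type in limma, *JOX4* had a change of 1.65 (*q* = 0.061; 2.28 with *q* = 0.008 without wild-type *Psm* replicate 2) and *JOX1* of 0.16 (*q* = 0.32). In each mutant 0 of the 4 passed, with 0 at an unadjusted *p* below 0.05 in limma in *lecrk-VI.2-2* and 1 in *bak1-5*. Called raised over all probe sets were 7.36% (wild type), 4.08% (*bak1-5*) and 0.607% (*lecrk-VI.2-2*). An unadjusted *p* below 0.05 was held by 9.22% of all probe sets in *lecrk-VI.2-2* and 20.2% in *bak1-5*. No rise of the 4 was called larger in the wild type than in either mutant. With array weights *JOX2* and *JOX3* passed in both mutants, and *JOX3* passed in *bak1-5* without *Psm* replicate 3 (2.27, *q* = 0.026). The changes of *JOX3* on the *Psm* arrays were −0.31, 2.80 and 0.48 in *lecrk-VI.2-2* and 1.73, 2.81 and −0.15 in *bak1-5*, the pattern of *BSMT1*. All 12 JA markers that could be assigned, every one through the study's list, were raised in the wild type, led by *TAT3* (6.40), *VSP1* (5.20), the coronatine-induced *CORI3* (4.69) and the chlorophyllase gene *CLH1* (4.39). The rise of 2 of the 12 was called larger in the wild type than in *lecrk-VI.2-2*, and that of 1 larger than in *bak1-5*. Of all probe sets 1.11% and 1.07% were called so. An unadjusted *p* below 0.05 in limma was held by 11 and 3 of the 12, beside 10.3% and 9.28% of all probe sets in either direction. The median differences of the 12 markers were 2.22 and 1.27. In *bak1-5* 8 of the 12 were raised. In *lecrk-VI.2-2* 4 were raised, against 1 when *lecrk-VI.2-2* MgCl2 replicate 1, MgCl2 replicate 2 or *Psm* replicate 2 was left out, 0 with the *lecrk-VI.2-2* arrays alone and 11 with array weights. The 3 *PR* genes, named in the same way, rose in the wild type by 3.80 (*PR1*), 5.88 (*PR2*) and 3.43 (*PR5*) and in *bak1-5* by 1.65, 2.97 and 2.37, and of these *PR5* rose in *lecrk-VI.2-2* (1.31; limma, *q* = 0.0042; *q* = 0.071 with the arrays compared alone). *PR2* changed there by 1.62 (limma, *q* = 0.085), which passed without *bak1-5* *Psm* replicate 2 (*q* = 0.0096), with array weights and with the filter on dim probe sets. The rise of all 3 *PR* genes was called larger in the wild type than in *lecrk-VI.2-2*, and that of 2 larger than in *bak1-5*.

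The genes whose levels were most like those of *DMR6* and of *BSMT1* were ranked by Pearson's *r*. Over the 18 arrays Pearson's *r* between *DMR6* and *BSMT1* was 0.838 (Spearman's rho 0.692), and 474 of the other 14298 genes were more like *DMR6* than *BSMT1* was. The arrays fall into *Psm* and MgCl2 clusters, so any gene that rose with SAR correlates with both, and these values are a description. The 10 genes most like *DMR6* had an *r* of 0.974 to 0.994. They were AT1G76960, the calreticulin gene *CRT3*, AT3G28540, the receptor-like kinase gene *CRK4*, AT5G55450, AT4G01610, the transcription factor gene *WRKY70*, the dehydrogenase gene *SDR3*, the glutathione transferase gene *GSTF6* and the receptor-like kinase gene *RLK1*. With wild type first, then *lecrk-VI.2-2* and then *bak1-5*, the change of *WRKY70* was 3.34, 2.35 and 3.20 and that of AT1G76960 was 3.91, 2.08 and 2.98, beside 3.75, 2.18 and 2.99 for *DMR6*.

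The 10 genes most like *BSMT1* had an *r* of 0.956 to 0.974. They were *JMT*, *NATA1*, *JOX3*, *ANAC072*, AT3G28220, the aromatic aldehyde synthase gene *AAS*, *JAZ10*, the kinase gene *WNK4*, *TSA1* and the nitrile specifier gene *NSP3*. Of these, 0 were also among the 10 of *DMR6*. When genes were ranked by Spearman's rho, 0 of the 10 of *BSMT1* and 2 of the 10 of *DMR6* were listed again. An overlap of 0 therefore does not set the 2 members apart. Deviations from the group means leave out the mean response to SAR of each group, but keep uneven responses among its arrays. These deviations gave a second view over the same arrays. By these the genes most like *BSMT1* were *JMT* (*r* = 0.984), AT3G28220 (0.954), *JOX2* (0.950), *JOX3* (0.943) and *JAZ10* (0.941). Without the 2 arrays on which *BSMT1* deviated most, these values were 0.958, 0.897, 0.882, 0.870 and 0.868. The deviations of *DMR6* and *BSMT1* had an *r* of 0.237. The genes most like *DMR6* by deviation were AT1G20100, the plastid division gene *FTSZ2-1*, the cell death suppressor gene *BI1*, AT5G06360 and the kinase gene *VIK* (*r* = 0.872 to 0.903), none of which was on its list by level.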

How the data were processed

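Total RNA of systemic leaves was measured on 18 Affymetrix ATH1 arrays. The deposited values are log2 signals per probe set, which the authors made with the affy package by RMA (background correction, quantile normalization and probe summary). Quantile normalization gives every array nearly the same distribution, so a change is relative to the other probe sets of an array. Arrays have no read depth, and precision is limited by their number. A table of 22810 probe sets was read, 64 controls were left out and 22746 were tested. The platform annotation named 13425 probe sets by 1 gene through RefSeq locus tags (TAIR10.1). Another 1017, *DMR6* among them, were named by a unique row of the study's list of transcriptome changes with the same 3 changes within 0.0006. In all 503 probe sets with several genes, 11 with conflicting names and 7790 others stayed unnamed. Fold changes and *q* values in that list are the authors' own comparisons and were used for naming alone.

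One limma model (limma 3.58.1, R 4.3.3) with 6 group means gave every comparison, with 12 residual degrees of freedom and Benjamini-Hochberg *q* over all probe sets. Samples were labelled as separate biological replicates. A *q* judges a change against the spread between them and does not measure that spread. Residual spread is shared between groups. On simulated data 100 of 100 changes of 3 and 97% to 100% of changes of 1.5 were recovered. Another 8 (wild-type change) and 4 (difference from *lecrk-VI.2-2*) unchanged probe sets were called. The changes were planted in the wild-type *Psm* arrays, with normal noise of the same SD in every group. The recovery therefore does not cover genes with unequal spread between groups, such as *BSMT1*. Alternatives were fits restricted to the arrays compared, a prior with an intensity trend and robust estimates, array weights, a filter on dim probe sets (highest group mean below 6), cyclic loess, median centring, a replicate block, and single arrays left out. Members, gene lists and tests were chosen with earlier results of these data known. From each list the members with the largest wild-type change were named, at most 4 where a list was longer than 5, with the 10 genes most like each member by level and 5 by deviation. Where a gene had several probe sets, that with the highest mean was used. Protein and promoter sequences were not used here.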

Additional observations from a re-analysis of the deposited data

Results flagged for a closer look

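These results drew attention because the change with SAR differed between genotypes by a test of the difference itself in limma. For *DMR6* the wild-type change exceeded that of *lecrk-VI.2-2* by 1.57 (*q* = 2.6e-05) and that of *bak1-5* by 0.77 (*q* = 0.018). For *DLO1* the differences were 2.89 (*q* = 1.8e-05) and 2.01 (*q* = 7.3e-04), and for *PBS3* 2.61 (*q* = 1.8e-05) and 2.42 (*q* = 5.9e-05). *CBP60G* differed by 0.91 (*q* = 0.012) and 1.08 (*q* = 0.0028), *PAD4* by 1.28 (*q* = 9.7e-04) and 1.53 (*q* = 2.5e-04), and *NPR3* by 1.09 (*q* = 0.015) and 1.29 (*q* = 0.0035). *EDS1* differed from *lecrk-VI.2-2* by 0.75 (*q* = 0.011). Both sets of differences share the wild-type arrays. Single arrays of these groups of 3 were not tested as outliers, among them *lecrk-VI.2-2* *Psm* replicate 2 and *bak1-5* *Psm* replicate 3, on which *BSMT1* stood apart.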

How the results depend on the processing

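Each result of *DMR6* and *BSMT1* was recomputed under 26 alternatives. The wild-type change of *BSMT1*, the changes of *DMR6* in the 3 genotypes and the excess of its wild-type change over that in *lecrk-VI.2-2* kept their direction and their side of the threshold in all 26. The *DMR6* difference between the wild type and *bak1-5* was 0.68 to 0.81 with single arrays left out, and lost its call in 3 of these fits. The *DMR6* difference between *bak1-5* and *lecrk-VI.2-2* passed with array weights (0.85), the filter on dim probe sets (0.81), cyclic loess (0.74), median centring (0.86) and without both *lecrk-VI.2-2* arrays of low signal (0.93), and was 0.72 to 0.96 with single arrays left out. The *BSMT1* change in *bak1-5* passed with array weights (3.78) and was 1.96 to 4.14 with single arrays left out, and that in *lecrk-VI.2-2* passed with array weights (3.83). The *BSMT1* difference between *bak1-5* and *lecrk-VI.2-2* turned to −0.05 with array weights and to −0.16 without both arrays of low signal, and was −0.78 to 1.60 with single arrays left out (−0.39, −0.58, −0.78 and −0.14 where it turned). Its level difference between the mutants after *Psm* ran from −0.70 to 1.68 with single arrays left out (−0.30, −0.49 and −0.05 where it also turned, and −0.05 without both arrays of low signal), and after MgCl2 the differences from the wild type ran from −0.13 to 0.03 for *lecrk-VI.2-2* and from −0.04 to 0.12 for *bak1-5*. The cause of these shifts was not tested. Some uncalled changes in a mutant also crossed 0 when single arrays were left out. In *lecrk-VI.2-2* these were *SOT12* (−0.01 to 0.16), *UGT74F2* (−0.05 to 0.27), *PBS3* (−0.05 to 0.25), *ICS1* (−0.09 to 0.26, and −0.04), *EDS5* (−0.01 to 0.21) and *AIM1* (−0.10 to 0.13, with −0.06 and −0.04, and −0.01 with cyclic loess), and in *bak1-5* *MES5* (−0.10 to 0.20), *ICS1* (−0.05 to 0.24), *EDS5* (−0.06 to 0.08), *NPR3* (−0.06 to 0.18, and −0.03) and *JOX1* (−0.06 to 0.14). The 23 genes of other SA-converting or related enzymes include *JMT*, whose enzyme methylates jasmonic acid. Of the 23, 6 were raised in the wild type (3 at a fold change of 2) and 0 in *lecrk-VI.2-2* (3 with array weights). In *bak1-5* 2 were raised (4 with array weights, 3 with cyclic loess or median centring and 1 to 3 with single arrays left out). Of 11 synthesis, regulator and receptor genes, 10 were raised in the wild type (5 with the filter on dim probe sets, which leaves fewer genes, and 6 at a fold change of 2), 0 in *lecrk-VI.2-2* (1 with array weights or cyclic loess, 0 to 1 with single arrays left out) and 3 in *bak1-5* (0 at a fold change of 2). By Spearman's rho, 2 of the 10 genes most like *DMR6* and 0 of the 10 most like *BSMT1* were the same. The deviations of arrays with the same number had an *r* of −0.437 to 0.322 over 45 pairs, 8 of them above 0.1, the highest for replicate 2 of the *Psm* groups of both mutants, so the numbers were not taken to pair the arrays. A replicate block left the *DMR6* difference from *bak1-5* at 0.77 (*q* = 0.033) and changed no call of *DMR6* or *BSMT1*, while in *lecrk-VI.2-2* *MYC2* passed with it and *VSP1* did not.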
